A study of Mus musculus with 3 samples.

Results

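The cytochrome P450 genes of the mouse were read in cells of the vomeronasal organ (VNO), the pheromone-sensing organ at the base of the nose. Members were all features whose symbol is Cyp followed by a number, letters and a number (Cyp2a5, for example), which gave 94 of the 32285 features counted and left out 14 other features whose symbols begin with Cyp. Of the 94 genes, 36 had no UMI (unique molecular identifier, a counted RNA molecule) in any kept cell, 22 had 1 to 19, and 36 had 20 or more. Their levels are given in sustentacular-like, basal-like and gland-like epithelial cells and in immune and stromal cells. Of the members with 20 or more UMIs, 11 are described by name under a rule of size and held 86.9% of all 91076 member UMIs. The other 25 are given by counts and ranges, apart from a few singled out after their values were seen. No unnamed member with 20 or more UMIs stood above 16.9 CPM in any of these classes.

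Single-cell RNA-seq was made from 3 libraries, 1 for each group, all of male animals on a mixed C57 BL/6J and 129P2/OlaHsd background. The P10 control library came from OMPCre heterozygotes at postnatal day 10, and the P10 mutant library from double heterozygotes for OMPCre and R26AP2e (OMPCreR26AP2e) at the same age. The 3-month mutant library came from adult OMPCreR26AP2e double heterozygotes, and no adult control was analysed here. OMPCre puts Cre recombinase under the locus of Omp, a gene of mature olfactory and vomeronasal neurons, and R26AP2e places Tfap2e, which encodes the transcription factor AP-2ε, at Rosa26. Every library carried OMPCre, so no group lacks Cre, and the number of animals behind each library is not given in the sources used here. With 1 library in each group no test between groups can be made. Between the P10 libraries the genotype cannot be told apart from the library itself, nor can age between the mutants, and the P10 mutant library enters both comparisons.

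Cytochromes P450 are haem enzymes that insert oxygen into small lipophilic molecules, drawing electrons from P450 oxidoreductase. Members of families CYP1 to CYP3 act largely on foreign compounds, and the CYP4 family on fatty acids and eicosanoids. Other members make or clear signals with a defined target, such as retinoic acid, oxysterols and steroids. Nasal mucosa is known for high P450 content, much of it of the CYP2A, CYP2F and CYP2G subfamilies, held mostly in supporting cells and glands and thought to clear inhaled chemicals and odorants.

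The libraries held 8202 to 10293 barcodes and 70074800 to 83870584 UMIs. Barcodes with 200 to 9000 genes and at most 10% mitochondrial UMIs were kept, which left 44.6% to 67.6% of them, fewest in the P10 mutant, where the median mitochondrial share over all barcodes was 11% against 8.66% in the control and 5.64% in the 3-month library. Kept cells had a median of 10236, 10766.5 and 5010.5 UMIs in the control, the P10 mutant and the 3-month library, the order used for values throughout. Any pair of libraries shared 4 to 9 barcodes among kept cells. In cells called neuronal, Tfap2e stood at 48.4, 356 and 175 CPM (counts per 1000000 UMIs of the pooled cells). In the 5 classes described here it ranged from 0.243 to 1.41 CPM in the control, from 15.6 to 46.4 in the mutant of that age and from 11 to 35.0 at 3 months, while Omp stayed at or below 4.4 CPM, and the part of this in any member value was not tested.

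Sustentacular-like cells, which surround the sensory neurons, numbered 435, 473 and 344. In them 6 of 8 markers stood above the rest of the cells in each library, led by Fezf2 at 349, 339 and 430 CPM against 22.4 to 30.4 elsewhere, while the markers Sec14l3 and Gpx6 were at 0.2 CPM or less. Basal-like cells numbered 508, 363 and 566, with all 8 markers above the rest, Krt5 among them. Gland-like cells numbered 301, 59 and 230, with 8 to 11 of 12 markers above the rest. There were 824, 1020 and 2458 immune cells and 906, 704 and 883 stromal cells (fibroblasts, osteoblast-like cells and smooth muscle). The classes were not held by the same clusters in every library. A cluster led by Ugt2a2 and S100g held 2.07%, 6.98% and 94.5% of the sustentacular-like cells, and a cluster led by Vmo1 and Sprr2f held 3.15%, 1.38% and 92.6% of the basal-like cells. Gland-like cells had a median of 1590 and 1464 UMIs in the control and the 3-month library but 19847 in the P10 mutant. A cluster led by Scgb1b27 held 57.5% of the gland-like cells of the control and 1 cell in each other library, and a sub-cluster of 53 cells led by Bpifb3 and Lcn4 held 79.2% of the gland-like UMIs at 3 months.

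Cyp2f2, Cyp2a5 and Cyp2j6 carried most P450 UMIs of the epithelium, and their promoters are shown because the main results turn on these 3 genes. Cyp2f2 and Cyp2a5 lie in a cluster of 13 members on chromosome 7 and Cyp2j6 in a cluster of 8 on chromosome 4 (gene positions from GENCODE M21, GRCm38). Cyp2f2 spans chr7:27119909-27133660 and Cyp2a5 chr7:26835305-26843548, both on the plus strand, and Cyp2j6 spans chr4:96516138-96553661 on the minus strand. The sequences run 5′ to 3′ on the strand of the gene from 250 bases before to 50 bases after its start in RefSeq (GRCm38.p6). Capitals mark TATAAA, the TATA box core, and TTGGC, the core of NFI sites, searched on both strands, so that TTGGC on the opposite strand reads GCCAA. The windows are chr7:27119705-27120004 for Cyp2f2, chr7:26835089-26835388 for Cyp2a5 and chr4:96553602-96553901 for Cyp2j6.
Cyp2f2: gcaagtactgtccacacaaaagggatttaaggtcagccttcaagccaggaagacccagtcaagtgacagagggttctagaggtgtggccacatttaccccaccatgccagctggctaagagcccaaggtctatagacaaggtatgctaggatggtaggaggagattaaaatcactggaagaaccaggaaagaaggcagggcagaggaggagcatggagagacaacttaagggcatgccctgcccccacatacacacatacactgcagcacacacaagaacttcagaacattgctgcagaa
Cyp2a5: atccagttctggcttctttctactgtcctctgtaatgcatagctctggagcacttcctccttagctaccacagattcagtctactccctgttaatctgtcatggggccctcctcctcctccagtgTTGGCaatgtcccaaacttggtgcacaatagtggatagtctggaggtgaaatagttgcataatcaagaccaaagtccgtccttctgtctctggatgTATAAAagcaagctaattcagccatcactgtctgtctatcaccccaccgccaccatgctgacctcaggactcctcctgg
Cyp2j6: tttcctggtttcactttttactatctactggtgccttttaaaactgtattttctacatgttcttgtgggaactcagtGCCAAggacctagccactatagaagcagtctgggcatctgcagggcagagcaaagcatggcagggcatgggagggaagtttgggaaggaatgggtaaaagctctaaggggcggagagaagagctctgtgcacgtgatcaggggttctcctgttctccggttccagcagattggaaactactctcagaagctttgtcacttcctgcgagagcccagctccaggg

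In the Cyp2a5 promoter TATAAA began at position -29 and TTGGC at position -125 from the start, both on the strand of the gene. The Cyp2j6 promoter held TTGGC on the opposite strand from position -173, and the Cyp2f2 promoter held neither run of letters. TATAAA was present in 32 of 83 promoters of members, or 38.6%, against 13.6% of all 32851 promoters of the same length. TTGGC was present in 51 of the 83, or 61.4%, against 46.7% of all. Promoters were at hand for 73 of the 94 members. These are matches of letters and not sites, and the members share ancestry, so no test was made.

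Summed over all 94 members, the sustentacular-like cells of the P10 libraries differed in P450 RNA by less than counting error, and the 3-month mutant held more. The sum stood at 466 CPM (95% Poisson interval 454 to 479), 458 (445 to 470) and 1706 (1672 to 1740). The ratio was 0.982 (0.945 to 1.02) between the P10 libraries and 3.73 (3.60 to 3.86) for the 3-month over the P10 mutant. These intervals, and all others here, cover counting error only and no spread between animals, cells or libraries. Basal-like cells stood at 695, 353 and 724 CPM and were the highest of the 5 classes in the control. Their P10 ratio of 0.508 (0.480 to 0.538) went to 0.789 without the 5 barcodes richest in member UMIs. It went to 0.907 with each library clustered on its own, where clusters made mostly of cells from a held-out joint cluster were also left out. With that held-out cluster counted in, the ratio was 0.287. Gland-like cells held 244, 177 and 195 CPM, immune cells 246, 189 and 209, and stromal cells 164, 143 and 366. In T and NK cells the sum was 62.6, 55.6 and 105 CPM, and in neutrophils, which held most Cyp4f18, it was 647, 442 and 567 CPM. Cells left without a class name held more than any class, at 2092, 967 and 2526 CPM.

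The makeup of the sum differed by class. Cyp2a5 held 25.8%, 31.9% and 68.5% of the P450 UMIs of sustentacular-like cells, and Cyp2j6 25.4%, 25.4% and 16.7%. In basal-like cells Cyp2f2 alone held 62.2%, 69.6% and 77.3%, and in gland-like cells 44.0%, 42.8% and 40.4%. Cyp4f18 led the immune sum with 48.8%, 49.4% and 39.0%. The stromal sum was led by Cyp20a1 at P10 and by Cyp26b1 at 3 months, where the latter held 38.7%.

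**Figure D1:**
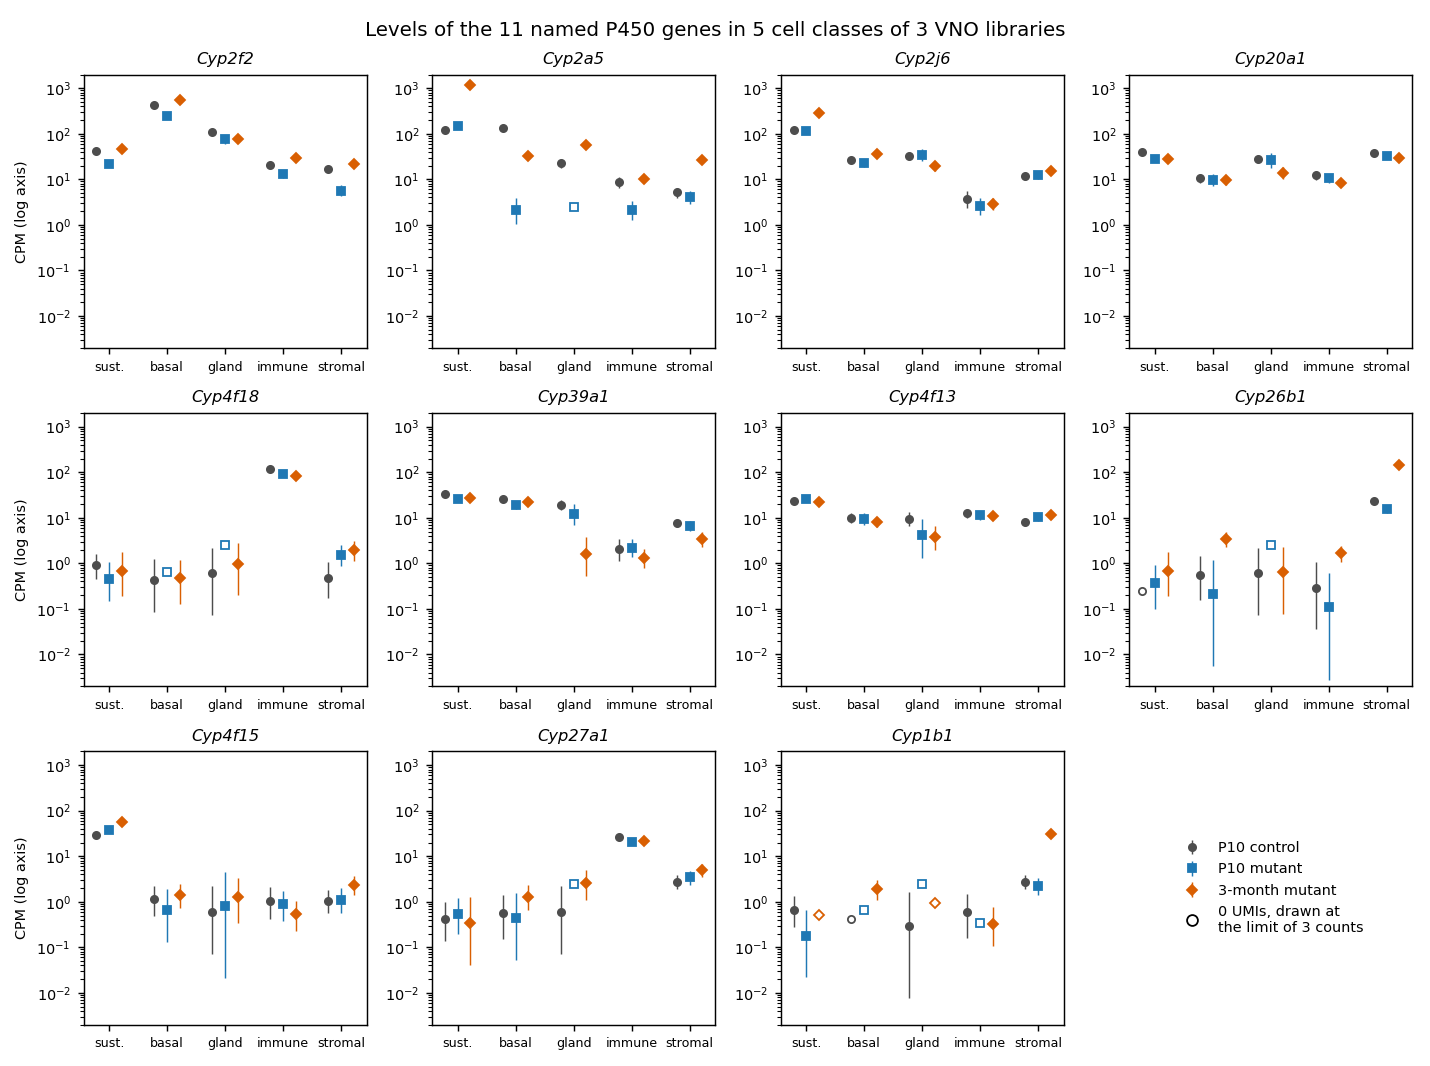
Level of each of the 11 named P450 genes (y axis, CPM on a log axis) in the 5 cell classes (x axis) of the P10 control, P10 mutant and 3-month mutant libraries. Points are pooled levels of 1 library, bars are 95% Poisson intervals, and open points are counts of 0 drawn at 3 counts. Cyp2a5 of sustentacular-like cells stands at 120, 146 and 1168 CPM, Cyp2f2 is highest in basal-like cells and Cyp4f18 in immune cells.

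Among the 21 members with enough UMIs to be ordered, 5 had their highest level in sustentacular-like cells in every library, namely Cyp2j6, Cyp2j9, Cyp4f15, Cyp4f13 and Cyp39a1. Of all 14848 genes ordered in the same way, 20% did so. Cyp2f2 was highest in basal-like cells in every library (6.09% of all genes) and no member in gland-like cells (2.12%). Cyp27a1, Cyp4v3 and Cyp4f18 were highest in immune cells (13.6% of all genes), and Cyp7b1, Cyp2u1, Cyp26b1, Cyp2d22, Cyp4f17 and Cyp1b1 in stromal cells (17.4%). For Cyp20a1, Cyp4b1, Cyp2s1, Cyp2a5, Cyp2r1 and Cyp4f16 the highest class differed between libraries. Some leads over the next class were within counting error. In the control these included Cyp4f17 at 1.02 times (0.683 to 1.54) and Cyp2j9 at 1.09 (0.739 to 1.64). The order covers the 5 classes only, and glia held more Cyp2j9 and Cyp2d22 than any of them.

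Cyp2a5, the mouse counterpart of human CYP2A6 and CYP2A13 and a coumarin 7-hydroxylase, had the most UMIs of the members in sustentacular-like cells. In the control Cyp2j6 was level with it within counting error, at 118 CPM (112 to 125). The UMIs of Cyp2a5 there numbered 1446, 1614 and 6777 in the order above, or 120 CPM (114 to 126), 146 (139 to 153) and 1168 (1140 to 1196). The P10 libraries stood close together, with a ratio of 1.22 (1.13 to 1.31), and the 3-month mutant stood 8.0 times (7.57 to 8.45) above the P10 mutant. The 3-month level was spread over the class. A UMI of Cyp2a5 was seen in 54.5%, 53.3% and 93.9% of sustentacular-like cells, and with every cell thinned to 2000 UMIs in 19%, 19.2% and 76.2%. Thinning left out 14, 26 and 4 shallower cells, and the class had medians of 21116, 16867 and 13324.5 UMIs. In neutrophils, which should lack the gene and had medians of 2424 to 2735.5 UMIs, the thinned share was 2.47%, 0% and 3.17%, where the 0 allows a share of up to 1.41%. The median cell of at least 2000 UMIs held 42.5, 51.9 and 894 CPM, with quartiles of 433 and 1588 CPM at 3 months. The 5 barcodes with most Cyp2a5 held 13.4%, 13.6% and 10.6% of it. In the few cells with at most 5% mitochondrial UMIs (56 control and 51 mutant cells) the P10 ratio was 0.602 in place of 1.22. The closest copy, Cyp2a4, had 0.0211% to 0.123% of the UMIs of the pair, but reads of such near-identical genes can be split by counting and their separate levels are uncertain.

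Cyp2j6, of the subfamily that makes epoxides of polyunsaturated fatty acids, was the next in these cells by UMIs. At P10 the median cell of at least 2000 UMIs held more Cyp2j6 (96.0 and 93.1 CPM) than Cyp2a5 (42.5 and 51.9). The Cyp2j6 level was 118 CPM (112 to 125), 116 (110 to 123) and 285 (272 to 299), with a ratio of 0.981 (0.909 to 1.06) at P10, and 2.46 times (2.28 to 2.65) higher in the 3-month than in the P10 mutant. It exceeded the next highest of the 5 classes 3.58, 3.35 and 7.92 times. With cells thinned to 2000 UMIs it was seen in 17.8%, 22.6% and 38.2% of sustentacular-like cells (79.1%, 71.0% and 90.7% unthinned) and in at most 1.44% of neutrophils. Outside the 5 classes, 56, 71 and 173 glia held Cyp2j6 at 359, 289 and 283 CPM.

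Cyp4f15 and Cyp4f13, of the family that hydroxylates leukotrienes and fatty acids, differed in how far their level fell off in the other 4 classes. Cyp4f15 (chr17:32685627-32703352) stood at 28.6, 36.7 and 55.3 CPM in sustentacular-like cells and at 0.53 to 2.32 CPM in the other 4 classes, a gap of 25.4, 32.9 and 23.8 times to the next class. Outside these classes Cyp4f15 stood at 11.1, 10.8 and 15.1 CPM in other epithelium and at 4.62, 5.43 and 21.1 CPM in cells called neuronal. Its ratios, 1.29 (1.11 to 1.49) at P10 and 1.51 (1.30 to 1.75) between the mutants, were both above 1 and both short of 2. Cyp4f13 (chr17:32924688-32947402) stood at 23.7, 25.4 and 22.8 CPM, only 1.87 to 2.26 times above the next class. The Cyp4f genes of chromosome 17 are close copies of one another, and reads between them may be misplaced.

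Cyp39a1, an oxysterol 7α-hydroxylase (chr17:43667425-43751431), stood at 33, 26 and 27.8 CPM in sustentacular-like cells. Basal-like cells were next with 25.6, 19.4 and 21.7 CPM, and the control ratio of the classes was 1.29 (1.08 to 1.54). Cyp20a1, an orphan P450 with no settled substrate (chr1:60343323-60388060), stood at 40.8, 28.5 and 27.8 CPM. Sustentacular-like and stromal cells traded the first place for Cyp20a1 between libraries, and the ratio of the 2 highest classes was 1.05 to 1.14 with intervals that include 1.

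Cyp2f2, a lung and nasal P450 that activates naphthalene, was a minor gene of the sustentacular-like class at 41.3, 21.8 and 45.3 CPM. The ratio at P10 was 0.528 (0.451 to 0.618), just inside the 2-fold limit, and between the mutants 2.08 (1.74 to 2.49), just outside it. Without the 5 barcodes richest in Cyp2f2 the latter was 1.92, short of the limit. Neutrophils held 10.1, 30.2 and 117 CPM of Cyp2f2, so that at 3 months its level in sustentacular-like, immune and stromal cells lay below theirs, while T and NK cells held 31.3 CPM, below the 45.3 of sustentacular-like cells.

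Between the P10 libraries 0 of the 19 members that could be compared in sustentacular-like cells passed 2-fold in either direction, against 2.76% of all genes. Comparable members had 20 or more UMIs in both libraries together, and a fold of 2 or more either way was counted. The median log2 ratio was -0.12 over the members and -0.01 over all 13779 genes. Between the mutants 5 of 17 members were higher and 1 lower by 2-fold, where 16% of all genes passed in either direction and 5.92% were higher. The median log2 ratio was 0.59 over the members and -0.03 over all genes. Besides Cyp2a5, Cyp2j6 and Cyp2f2, the higher members were Cyp7b1, an oxysterol hydroxylase, from 2.08 to 9.14 CPM, and Cyp4v3, a fatty acid hydroxylase, from 4.34 to 9.48 CPM. Cyp4b1 was lower at 0.238 (0.0833 to 0.557), from 4.34 to 1.03 CPM. The classes of both mutants were held by different clusters, as given above. The mutants were also counted with different versions of Cell Ranger (4.0.0 at P10 and 6.0.1 at 3 months). Library, age, software version and the shift of clusters cannot be told apart.

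**Figure D2:**
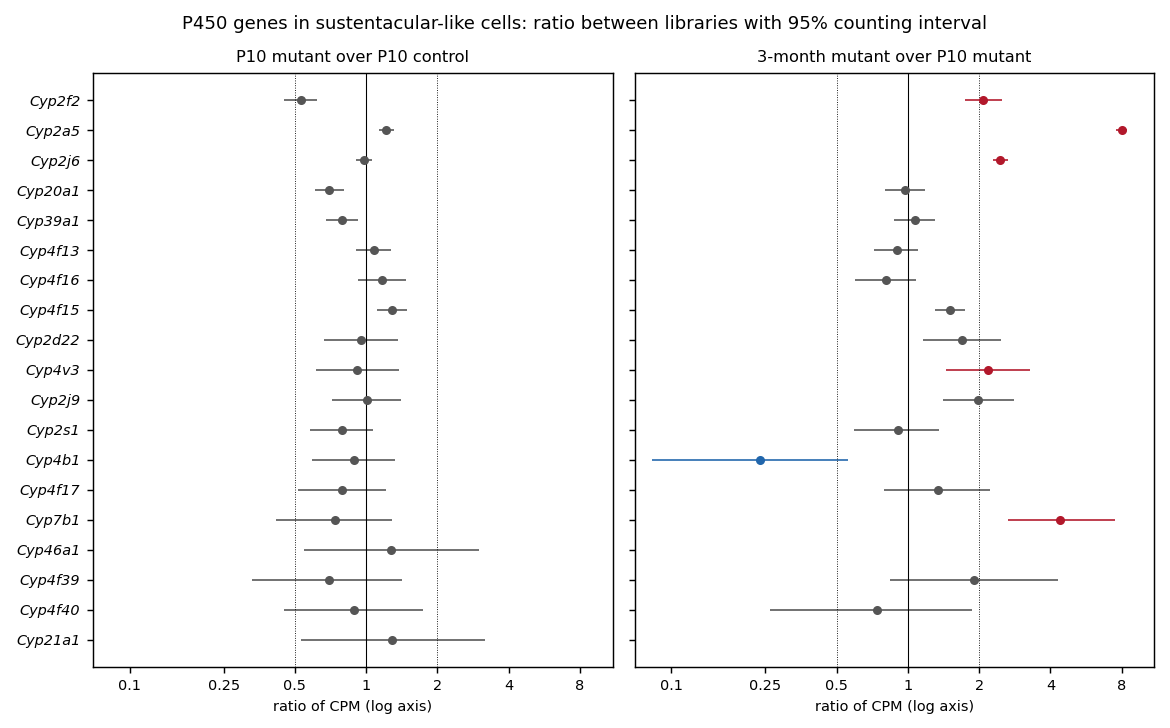
Ratio of CPM (x axis, log axis) for each P450 gene with 20 or more UMIs in sustentacular-like cells (y axis), left for the P10 mutant over the P10 control and right for the 3-month over the P10 mutant, with 95% counting intervals. Dotted lines mark 2-fold, red points are higher and blue points lower by 2-fold. All 19 points on the left lie within 2-fold and Cyp2a5 on the right lies at 8.0.

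Basal-like cells, the stem and progenitor cells of the epithelium, had Cyp2f2 as their main P450. It had 3075, 1142 and 4742 UMIs, or 432 CPM (417 to 448), 246 (232 to 261) and 560 (544 to 576). The level was 4.03, 3.24 and 7.11 times that of gland-like cells, the next class. The ratio was 0.569 (0.531 to 0.609) at P10 and 2.27 (2.13 to 2.43) between the mutants. With cells thinned to 2000 UMIs, a UMI of Cyp2f2 was seen in 37.9%, 30.9% and 58.5% of basal-like cells (73.4%, 72.2% and 89.9% unthinned), against 0.617% to 2.02% of neutrophils and 0% (0 of 63 cells, up to 5.69%) to 1.81% of T and NK cells. Thinning left out 54, 20 and 2 cells.

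A few barcodes shaped both main P450 genes of the control basal-like class. Cyp2a5 stood at 134, 2.15 and 32.5 CPM there, a ratio of 0.0161 (0.00771 to 0.0298) at P10 and 15.1 (8.07 to 31.8) between the mutants. In the control its 950 UMIs lay in 23 of 508 cells, and 4 barcodes held 922 of them, or 97.1%, with 472, 177, 137 and 136 UMIs each. Those 4 barcodes also held 471, 133, 52 and 202 UMIs of Cyp2f2, and 47, 79, 3 and 146 of Aldh3a1, an aldehyde dehydrogenase of upper airway and cornea. In a clustering of the control library alone they fell into a cluster of 139 cells that scored as basal, with 8 of 8 markers. It was left unnamed only because 74 of its cells lay in the joint cluster held out after clusters were seen. Without those 4 barcodes, the control basal-like cells held 28 Cyp2a5 UMIs, or 4.01 CPM (2.66 to 5.79). In the 3-month basal-like cells 5 barcodes held 57.5% of Cyp2a5, which stood at 14.1 CPM without them. For Cyp2f2 the 5 leading control barcodes held 31.5% of the UMIs. Leaving out the 5 leading barcodes of each library gave 303, 230 and 537 CPM and a ratio of 0.76 at P10. Cells clustered library by library gave 0.951, with that control cluster of 139 cells left out.

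**Figure D3:**
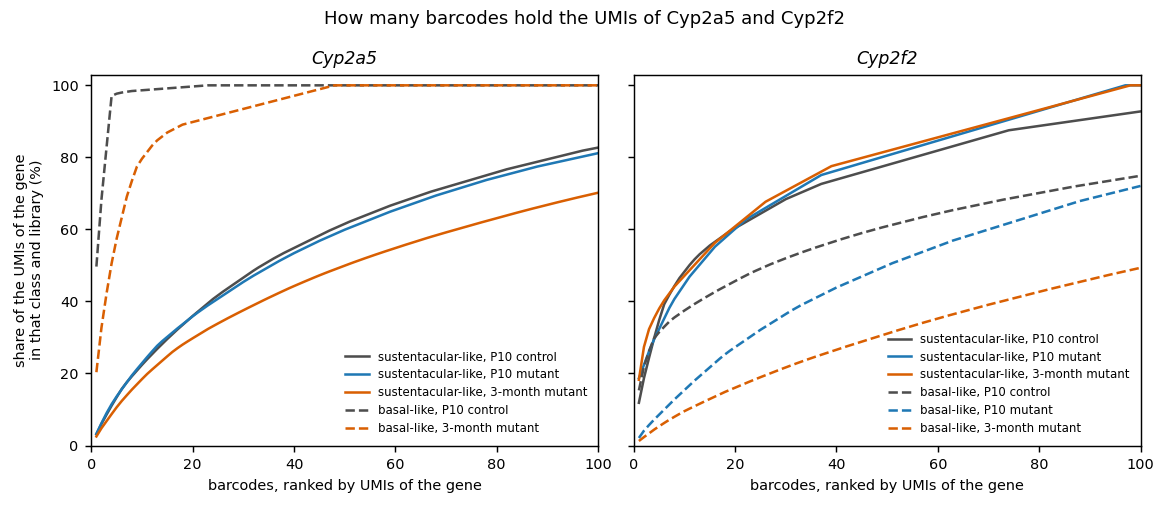
Cumulative share of the UMIs of Cyp2a5 (left) and Cyp2f2 (right) in percent (y axis) held by barcodes ranked from the most UMIs of that gene (x axis), for sustentacular-like (solid) and basal-like (dashed) cells of each library. The basal-like Cyp2a5 curve of the P10 mutant is not drawn because the class held too few UMIs. In the control 4 barcodes hold 97.1% of basal-like Cyp2a5, while its sustentacular-like curves climb slowly in all 3 libraries. For Cyp2f2 the 5 leading barcodes hold 34.8%, 32.4% and 38.0% in sustentacular-like cells and 31.5%, 8.58% and 5.36% in basal-like cells.

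Of 15 members compared in basal-like cells at P10, 3 were lower by 2-fold and none higher, against 3.93% of all genes in either direction. Besides Cyp2a5 these were Cyp4f39 and Cyp26a1, a retinoic acid hydroxylase at 0.443 (0.219 to 0.835). Cyp4f39 went from 3.8 CPM to a count of 0, a ratio of at most 0.170. But 25 of its 27 control UMIs lay in 5 barcodes and the 2 others are under the floor, so no ratio remains without them. Of the 45 control UMIs of Cyp26a1, 5 barcodes held 23, and the control level went from 6.33 to 3.15 CPM without them. Between the mutants 4 of 16 were higher and none lower, against 14% of all genes, and the median log2 ratio was 0.65 over the members and -0.15 over all genes. Cyp26b1 went from 1 UMI to 29 UMIs, a ratio of 15.9 (2.63 to 649) that turned to 0.60 in cells with at most 5% mitochondrial UMIs. Cyp1a2, known for oxidising aromatic amines and caffeine, had 20 UMIs in the 3-month mutant and none in the P10 mutant, at least 3.65 times higher. Over all cells of the 3-month library its 98 UMIs lay in only 14 cells, and 59.2% of them in the held-out cluster. The most in a single cell, of any class, was 20. Cyp2j6 and Cyp39a1 stayed inside 2-fold in both comparisons in this class.

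In gland-like cells, the secretory cells beneath and beside the epithelium, Cyp2f2 had the highest level, with 107, 75.9 and 78.7 CPM. This rested on few barcodes, since 5 held 54.9%, 72.8% and 75.1% of it and the rest stood at 50.8, 23.8 and 21.1 CPM, no longer the highest member in the P10 mutant and the 3-month library. Cyp2a5 stood at 22.8, 0 and 57.2 CPM. The control value rested on 76 UMIs in 13 cells, 5 of which held 89.5%, and 5 barcodes held 61.8% of the 3-month value, which was 23.3 CPM without them. Of 7 members compared at P10, Cyp2a5 (at most 0.108) and Cyp4f13 at 0.429 (0.130 to 1.11) were lower, against 9.02% of all genes past 2-fold. Between the mutants 1 of 5 was higher (Cyp2a5, at least 23.1 times) and 1 lower (Cyp39a1, 0.130), against 61.5% of all genes past 2-fold and a median log2 ratio of -1.14 over all genes. The 59 cells of the P10 mutant and the other clusters of each library limit every gland-like ratio, and that of Cyp4f13 at P10 turned to 3.54 in cells with at most 5% mitochondrial UMIs.

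The highest P450 levels lay in epithelial cells outside the named classes, which were described by their leading genes and chosen after their values were seen. In a cluster led by Msln and Gpr83 (78, 48 and 34 cells) Cyp2f2 stood at 743, 598 and 1537 CPM and Cyp2a5 at 5.29, 6.90 and 216 CPM. In a cluster led by the ciliary genes Tmem212 and Ccdc153 (19, 11 and 48 cells) Cyp2f2 stood at 328, 293 and 1352 CPM and Cyp2a5 at 15.9, 8.49 and 465 CPM. Both genes were thus higher at 3 months in each cluster, and their level among neutrophils was also highest there. A sub-cluster led by Muc5ac, a gel-forming mucin, and Tff genes had 19 control cells with 5099 CPM of Cyp2f2 and 1592 of Cyp2a5. Of the sub-clusters with Upk1b and Adh7 among their leading genes, the largest of the control (38 cells) held Cyp2f2 at 2242 CPM, and those of 83 and 35 cells at 3 months held it at 2012 and 4003 CPM. The joint cluster from which those sub-clusters came had 76, 1 and 220 cells left without a class, and held 30.01%, 0.389% and 34.0% of all Cyp2f2 UMIs and 26.2%, 0% and 22.1% of all Cyp2a5 UMIs of the kept cells.

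Cyp2g1, an olfactory P450 that lies beside Cyp2a5 on chromosome 7 (chr7:26808892-26821205), separated the cells rich in Cyp2a5 at 3 months. In the control and the P10 mutant it had only 35 and 24 UMIs. Of these, 62.9% and 75% lay in the 6 and 5 cells called ionocyte and tuft. The 11 cells of a 3-month sub-cluster led by Cyp2g1 and Sec14l3 held 562 UMIs of Cyp2g1 and 1698 of Cyp2a5, or 3365 and 10166 CPM, a ratio of Cyp2a5 to Cyp2g1 of 3.02 (2.74 to 3.33). In the 3-month sustentacular-like cells there were 6777 UMIs of Cyp2a5 and 11 of Cyp2g1, a ratio of 616 (344 to 1235). Fezf2 was at 5.99 CPM in that sub-cluster, a count of 1, against 430 CPM in the 3-month sustentacular-like class. The 3-month cells called neuronal held 1275 UMIs of Cyp2a5 and 84 of Cyp2g1, a ratio of 15.2 (12.2 to 19.2), with Fezf2 at 121 CPM.

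**Figure D4:**
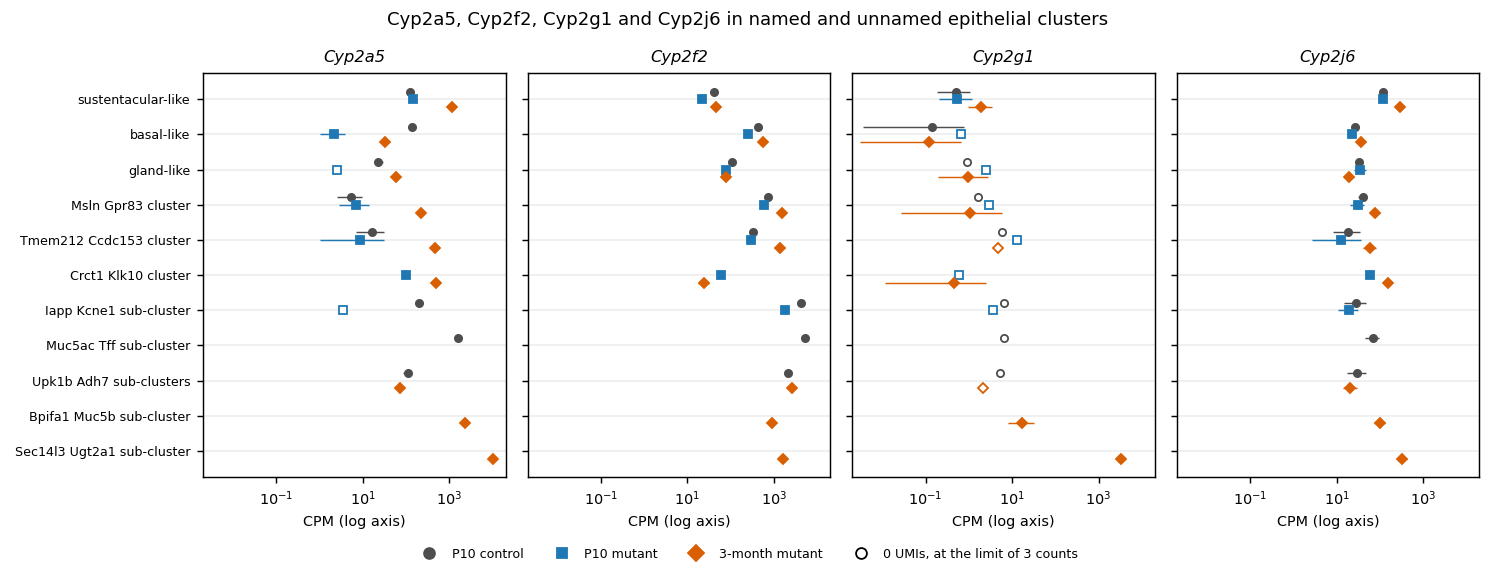
Levels of Cyp2a5, Cyp2f2, Cyp2g1 and Cyp2j6 (x axes, CPM on a log axis) in the 3 named epithelial classes and in epithelial clusters given by their leading genes (y axis), by library, with 95% Poisson intervals. Sets of cells under 10 in a library are not drawn and open points are counts of 0 drawn at 3 counts. Cyp2g1 reaches 3365 CPM in the Sec14l3 and Ugt2a1 sub-cluster and 1.90 CPM or less in the named classes.

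Immune P450 RNA was led by Cyp4f18, which acts on leukotriene B4 and is known from mouse neutrophils (chr8:71988482-72009626). In the immune class it stood at 120, 93.3 and 81.3 CPM, and neutrophils held most, at 578 CPM (519 to 643), 363 (326 to 402) and 378 (344 to 415). Macrophages held 124, 124 and 113 CPM. A UMI was seen in 63.0%, 60.8% and 51.0% of neutrophils, and in 54.3%, 48.8% and 42.9% with cells thinned to 2000 UMIs, against 0% (0 of 69 cells, up to 5.21%) to 1.05% of T and NK cells unthinned. Cyp27a1, the mitochondrial sterol 27-hydroxylase (chr1:74713574-74737892), stood at 26.74, 20.4 and 21.7 CPM in the class and was seen in 0 of 211, 314 and 459 neutrophils, which allows shares of up to 1.73%, 1.17% and 0.80%. In macrophages Cyp27a1 stood at 48.6, 37.4 and 44.6 CPM. The 0 counts allow at most 6.20, 3.72 and 3.13 CPM in neutrophils, under the level in macrophages. In the immune class each gene differed by less than 2-fold between libraries.

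At P10, 2 of 12 members passed 2-fold in immune cells, Cyp2a5 lower at 0.244 and Cyp11a1 higher at 2.07 (1.12 to 4.03), against 3.46% of all genes. For Cyp2a5, 5 barcodes held 57.6% of the 59 control UMIs, and 1 of them held 29. Without those 5 the control level went from 8.67 to 3.73 CPM, beside 2.12 CPM in the P10 mutant with all barcodes. Cyp11a1 is the side-chain cleavage enzyme that starts steroid synthesis. The 4 mast cells of the control held 15 of its UMIs, all in 1 barcode, and the 9 of the P10 mutant held 40. The 68 mast cells of the 3-month mutant held 0 UMIs of Cyp11a1, which allows up to 46.6 CPM. Between the mutants 5 of 16 members passed 2-fold, 4 higher and 1 lower, against 21.4% of all genes. The higher ones were Cyp26b1, Cyp2s1, Cyp2a5 and Cyp2f2, and the lower was Cyp11a1 at 0.0436. For Cyp26b1, 1 barcode held 16 of the 25 UMIs at 3 months, and without the richest 5 the level went from 1.66 to 0.333 CPM. Cyp2a5 and Cyp2f2 were at 10.7 and 31.3 CPM in the 3-month T and NK cells, as high as in the immune class as a whole (9.96 and 29.3 CPM). The immune ratio of Cyp2f2 between the mutants, 2.29, turned to 0.938 without the cells of highest doublet score and went to 3.66 without the 5 barcodes richest in it.

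In stromal cells Cyp26b1 and Cyp1b1 were higher in the 3-month than in the P10 mutant. At 3 months both stood higher in fibroblasts than in the class, while at P10 Cyp26b1 was higher in osteoblast-like cells than in fibroblasts. The makeup of the class differed as well. Osteoblast-like cells numbered 488, 352 and 72 of the 906, 704 and 883 stromal cells. Fibroblasts numbered 183 in the control and 682 at 3 months. The part of this shift in the stromal sum, ratios and counts of members past 2-fold was not tested. Cyp26b1, a retinoic acid hydroxylase (chr6:84571414-84593908), stood at 23.8 CPM (21.1 to 26.65), 15.3 (12.9 to 17.9) and 141 (133 to 150), a ratio of 9.27 (7.81 to 11.1) between the mutants. Within fibroblasts it stood at 8.79, 5.72 and 174 CPM, within osteoblast-like cells at 30.9, 17.7 and 16.7, and within smooth muscle at 16.6, 20.5 and 28.6. The higher level was thus in fibroblasts, which were not the same clusters at both ages. A cluster led by Eln and Igf1 held 181, 221 and 0 of them. A cluster led by Angptl7 and Apod, with Cyp26b1 among its leading genes, held 2, 4 and 682. Age, library, software version and cluster thus cannot be told apart. With the 3-month library clustered alone, Cyp26b1 led a fibroblast cluster of 143 cells and was not among the leading genes of the other, of 543. With stromal cells thinned to 2000 UMIs, Cyp26b1 was seen in 5.31%, 3.01% and 10.9% (14.1%, 11.6% and 19.3% unthinned). Cyp1b1, which hydroxylates oestradiol and retinoids (chr17:79701537-79715061), stood at 2.75, 2.24 and 30.5 CPM, a ratio of 13.7 (8.82 to 22.2), and at 38.9 CPM in 3-month fibroblasts. Leaving out the 5 richest barcodes of each library took the Cyp1b1 ratio to 22.

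At P10, 2 of 21 stromal members passed 2-fold, Cyp2f2 lower at 0.335 (0.245 to 0.452) and Cyp4f18 higher at 3.14, against 3.73% of all genes. Both are genes of another class, and Cyp2f2 was at 17 and 5.69 CPM. Between the mutants 8 of 21 were higher and none lower, where 18.4% of all genes passed in either direction and 9.18% were higher. Besides Cyp26b1 and Cyp1b1 these were Cyp2j9, Cyp2a5, Cyp2f2, Cyp2e1, Cyp4v3 and Cyp4f15, of which Cyp2a5 and Cyp2f2 stood at 26.27 and 22 CPM, against 24.6 and 117 CPM in neutrophils of that library. Without the 5 barcodes richest in each, they stood at 9.32 and 15.1 CPM. Cyp4v3 went from 1.53 to 9.65 CPM. Cyp2e1, the ethanol-inducible P450, had 0 UMIs in the P10 mutant and 71 at 3 months (at least 28.4 times higher), beside 141 CPM in the endothelial-like cells of that library. The median log2 ratio was 0.73 over the members and -0.02 over all genes.

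Genes that work beside P450s were taken from 5 lists, read in sustentacular-like cells with the same 2-fold rule, which 2.76% of all genes passed at P10 and 16% between the mutants (5.92% higher). Of the electron donors, 0 of 7 passed at P10 and 0 of 7 between the mutants. Por, the oxidoreductase that feeds microsomal P450s, stood at 572, 542 and 1027 CPM, a ratio of 1.89 between the mutants. Of flavin monooxygenases, aldehyde dehydrogenases and epoxide hydrolases 0 of 9 passed at P10, and 5 of 10 were higher and 1 lower between the mutants, Aldh2 being the highest gene at 235, 208 and 418 CPM. Of the conjugating enzymes 1 of 10 was lower at P10 and 5 of 10 were higher between the mutants. The glutathione transferases Gsta4 and Gstm1 were the highest of them, Gsta4 with 425, 367 and 519.8 CPM and Gstm1 with 376, 364 and 1013 CPM. Ugt2a2, an olfactory glucuronosyltransferase, stood at 16.9, 8.33 and 227 CPM, with ratios of 0.491 (0.380 to 0.632) and 27.2 (22 to 34). Of the receptors that regulate Cyp genes and their partners 0 of 5 passed in either comparison, where Tiparp stood at 110, 138 and 70.5 CPM and Ahr at 94.1, 113 and 97.7 CPM. Of the retinoid genes 0 of 10 passed at P10, and 3 of 10 were higher and 1 lower between the mutants. Crabp1, a retinoic acid binding protein, was higher at 3 months (209, 176 and 598 CPM) and Crabp2 lower (227, 210 and 80.0 CPM). Between the mutants the median log2 ratio was 0.34, 0.91, 0.95, -0.21 and 0.58 for the 5 lists in the order given, against -0.03 over all genes.

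By family, the chromosome 7 cluster of Cyp2a, Cyp2b, Cyp2f, Cyp2g, Cyp2s and Cyp2t genes (13 members over 1356 kb) held 60.3% of all member UMIs, 58.6% of them from Cyp2f2. The 8 Cyp2j genes of chromosome 4 held 10.7%, of which Cyp2j6 held 89.3%. The 8 Cyp4f genes on chromosome 17 held 7.42%, and the ninth, Cyp4f18, lies on chromosome 8. The Cyp2c family, large in liver, had 20 UMIs over 15 members, 12 of which had none. UMIs of the 3′ kit are not scaled by gene length, so levels of different genes count molecules captured and are compared here without a length term.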

How the data were processed

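Single-cell suspensions were made by enzymatic dissociation of VNO and sequenced with a 10x 3′ kit. The authors deposited filtered matrices of raw UMI counts per gene and barcode, aligned to mm10 with Cell Ranger, version 4.0.0 per the file headers for both P10 libraries and 6.0.1 for the 3-month library. No replicate exists in any group, and intervals cover counting error only. From the counts, barcodes with 200 to 9000 genes and at most 10% mitochondrial UMIs were kept and clustered jointly in scanpy 1.11.5 (Python 3.11.15, numpy 2.4.6, scipy 1.17.1, pandas 2.3.3, leidenalg 0.10.2) on 2000 variable genes with P450 genes, listed pathway genes and vomeronasal receptor genes left out, 30 principal components and Leiden resolution 1. Clusters were named from fixed markers, and the thresholds of naming (a score of 3.8, and Fezf2, Krt5 and Krt14 at 225, 500 and 600 CPM), the sub-clustering and 1 held-out joint cluster were set after clusters were seen. This left 17.7%, 12.2% and 22.2% of cells unnamed. Doublets were not removed, because Scrublet marked 0, 0 and 1 barcodes.

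Counts were summed by class and library. Levels carry exact Poisson 95% intervals, ratios conditional exact binomial ones and shares Clopper-Pearson ones. A count of 0 was set to a floor of 3 counts in ratios, given as bounds. A member was named when it had 20 UMIs in the kept cells and 20 CPM in a class with 20 cells in any library. On simulated counts the 2-fold rule called 100% of genes changed 4-fold and 0.868% of 13597 unchanged genes at P10 (1.29% of 13093 between the mutants). The simulated counts were Poisson, with no spread between cells, barcodes or libraries. These shares therefore cover counting error only and do not give the error rate of the rule in these data. The members and lists were chosen with earlier results of these data known. Alternatives were a limit of 5% mitochondrial UMIs, 2000 UMIs a barcode, separate clustering, leaving out high doublet scores, means over cells, other denominators, neutrophil levels subtracted and other limits on UMIs and fold. After the data were seen, 3 were added: leaving out the 5 richest barcodes, another gland-like set and the held-out cluster counted as basal-like.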

Additional observations from a re-analysis of the deposited data

Results flagged for a closer look

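The values in this part lie in cells outside the 5 classes and stood above the control library there. The differences rest on 1 library each and were not tested. Between the 3-month mutant and the control, age, genotype, library and Cell Ranger version all differ and cannot be told apart. Cyp2a5 stood at 413 CPM in other epithelium of the 3-month mutant against 45.6 in the control, and Cyp2j6 at 117 against 35.3. Of these, 93 of 111 control Cyp2a5 UMIs came from 1 cell, and 1067 of 1563 Cyp2a5 and 332 of 444 Cyp2j6 UMIs at 3 months came from a cluster led by Crct1 and Klk10. In the held-out epithelial cluster at 3 months Cyp2a5 stood at 1250 CPM against 998 in the control, and Cyp2g1 at 227 CPM against 0.846 (a count of 1). The cells lay in different sub-clusters, since 727 of the 1180 control Cyp2a5 UMIs came from 19 cells of the Muc5ac sub-cluster and, of 3148 at 3 months, 1698 came from 11 cells of the Sec14l3 sub-cluster and 1206 from 28 of the Bpifa1 sub-cluster. Cyp2a5 in cells called neuronal stood at 364 CPM at 3 months, 27.5 in the P10 mutant and 27.3 in the control. Fezf2, a sustentacular marker, stood at 121, 48.5 and 47.1 CPM in the same cells. The part of sustentacular RNA in the Cyp2a5 value was not tested. Cyp26a1, which clears retinoic acid, stood at 106 CPM in other epithelium of the P10 mutant with 0 UMIs in the 98 control cells, a count that allows up to 1.51 CPM. Those UMIs came from the Crct1 and Klk10 cluster, with 217, 112 and 1 cells in the P10 mutant, the 3-month library and the control. Cyp2e1 stood at 141 CPM in 380 endothelial-like cells of the 3-month mutant (129 to 154) against 3.9 in the P10 mutant and 0.504 in the control.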

How the results depend on the processing

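No paired analysis was possible because each group has 1 library. Ratios below are of the summed P450 level, first between the P10 libraries (mutant over control) and then between the mutants (3-month over P10), and counts are members past 2-fold. The cause of each shift was not tested, except where fewer cells or other limits set it by construction. With at most 5% mitochondrial UMIs the ratios were 0.806 and 3.48 in sustentacular-like, 0.284 and 2.60 in basal-like, 0.611 and 1.67 in gland-like and 0.743 and 3.23 in stromal cells, and 1.02 between the mutants in immune cells. The counts were then 3 and 3 in sustentacular-like and 0 and 4 in gland-like cells, and single ratios that turned were Cyp26b1 in basal-like cells between the mutants (0.60), and Cyp2a5 (1.01) and Cyp4f13 (3.54) in gland-like cells at P10. With separate clustering of the libraries the ratios were 3.59 in sustentacular-like cells between the mutants, 0.907 in basal-like cells at P10, and 1.15 and 0.511 in gland-like cells, where the count between the mutants was 6. The hold-out was carried over to these clusterings, so the basal-like value of 0.907 leaves out the clusters it covers. As a mean over cells they were 3.55 in sustentacular-like cells, 0.613 and 1.86 in basal-like, 0.567 and 1.42 in gland-like, 0.896 in immune and 2.31 in stromal cells between the mutants. With the neutrophil level subtracted they were 4.08 in sustentacular-like cells between the mutants, 0.447 and 1.92 in basal-like cells, 0.547 in gland-like cells between the mutants, 0.676 in immune cells at P10 and 2.97 in stromal cells between the mutants. The counts were then 4 in sustentacular-like cells at P10 and 5 in gland-like cells between the mutants, and Cyp4f13 in gland-like cells at P10 turned to 2.04. The immune class includes neutrophils, which held more Cyp4f18 than the class, so the immune value of 0.676 is not a ratio of levels above background. Without the highest doublet scores the immune ratio between the mutants was 0.940, Cyp2f2 there turned to 0.938, and the counts were 1 in sustentacular-like cells at P10 and 1 in gland-like cells between the mutants. Barcodes of at least 2000 UMIs gave a count of 1 in gland-like cells between the mutants, a minimum of 5 UMIs gave 4 in sustentacular-like cells at P10, and a minimum of 50 gave 1 and 1 in gland-like cells. A ratio of 1.5 gave 1 and 10 in sustentacular-like cells and 4 in gland-like cells between the mutants. Of alternatives chosen after seeing the data, the held-out cluster counted as basal-like gave 0.287 and 3.96. Leaving out the 5 richest barcodes gave 0.789 in basal-like and 0.825 in immune cells at P10, and counts of 1 in sustentacular-like and 0 in gland-like cells at P10. Gland-like cells of 1 joint cluster gave counts of 0 and 1. Over the 8 alternatives the sustentacular-like ratio between the mutants ran from 3.48 to 4.08, and 76 other values kept within counting error or 1.5 times of the reported ones. The number of members highest in sustentacular-like cells in every library ran from 4 to 7.

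Depth limits the genes of few UMIs and the gland-like class, which had 59 cells in the P10 mutant. Outside the epithelium few barcodes held much of Cyp2f2 and Cyp2a5. At 3 months 78 of 2458 immune cells held the 442 UMIs of Cyp2f2, and 5 barcodes held 48.2% of them. The part of free RNA or of doublets in these values was not tested. With 1 library a group, no difference has a replicate check.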

Other observations

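Glia and endothelial-like cells held P450 genes of their own, given as values with no test. Glia, with 56, 71 and 173 cells, held Cyp2j9 at 104, 95.8 and 162 CPM and Cyp2d22 at 61.1, 59.6 and 96.4 CPM, beside Cyp2j6 at 359, 289 and 283 CPM. Endothelial-like cells held Cyp2d22 at 22.7, 38.1 and 60.1 CPM. In the unnamed epithelium, a sub-cluster led by Iapp and Kcne1 with 22 control and 42 P10 mutant cells held Cyp2f2 at 4245 and 1756 CPM. A 3-month sub-cluster of 28 cells led by Bpifa1 and Muc5b, genes of secretory airway cells, held Cyp2a5 at 2304 CPM and Cyp2f2 at 886 CPM. The Crct1 and Klk10 cluster, with 217 P10 mutant and 112 3-month cells, held Cyp2a5 at 102 and 483 CPM, Cyp26a1 at 132 and 62.4 CPM and Cyp2j6 at 59.8 and 150 CPM.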
